A study of Caenorhabditis elegans with 40 samples.

Results

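The change of RNA levels with age was compared between 25°C and 20°C in npr-8(ok1439) mutants of the nematode *C. elegans*. The comparison used the 4 groups labelled npr-8(ok1439), 5 libraries each, which are 20 of the 40 libraries of the series and were chosen by genotype, age and temperature alone. The groups were old animals at 25°C, young animals at 25°C, old animals at 20°C and young animals at 20°C. Old animals were 9-day-old adults, and young animals were 0-day-old adults by the sample labels and 1-day-old adults by the study's methods. All 4 groups carried the ok1439 deletion of npr-8, fed on *E. coli* OP50, and had been kept at their temperature for at least 2 generations. Another 20 libraries, from wild-type N2 animals of the same ages and temperatures, served to ask whether the interaction differed between the genotypes. RNA came from whole animals, so each library holds every tissue of the adults with any oocytes and embryos inside them. Neither the labels nor the methods say that the 5 libraries of a group came from separate cultures, so the p-values measure the spread between these libraries, which may be technical.

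The product of npr-8 belongs to the neuropeptide receptors, membrane proteins that signal through G proteins. The cuticle of the worm is built mainly of collagens, which the epidermis makes in pulses at each molt and, for the last time, as the adult cuticle is laid down, together with hedgehog-related proteins, proteases and other matrix proteins. The hermaphrodite makes its sperm before its oocytes, and the growing oocyte is loaded with yolk, with maternal RNAs and with the proteins of the future eggshell.

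The 20 libraries held 18690583 to 31635824 fragments on genes (median 26551120), and the 10 most abundant genes took 4.02 to 7.5% of them. In a principal component analysis the first component carried 79.2% of the variance and the second 14.6%. On the first component young animals at 20°C lay at −143.8 to −136.6, far from old animals at 25°C (69.2 to 82) and at 20°C (81.2 to 84.8), whereas young animals at 25°C lay between them (−28.8 to −13). On the second component young animals at 25°C lay at 59.3 to 75.3, apart from all other libraries (−40.8 to −1.9). Genes that define body wall muscle, intestine and neurons were measurable in these whole animals (16 of 20, 8 of 8 and 18 of 18 listed genes passed the filter on low counts). The library young 25°C replicate 1 stood apart, being the lowest of its 5 libraries for 38.1% of the genes tested and the highest for 40.6%. Its vitellogenins and yolk receptor summed to 6896 counts per 1000000 fragments (CPM), against 33811 to 44438 CPM in the other 4 young libraries at 25°C, and its body wall muscle genes to 5828 CPM against 10398 to 13788 CPM. Without it 4335 genes had a positive and 1670 a negative interaction. Without it the counts of positive interactions were 6 for the furrow collagens, 13 for the body-shape collagens, 16 for the molting matrix genes and 33 for the hedgehog-related genes, and the counts of negative ones were 19 for the maternal and 12 for the eggshell genes. Replicate numbers are the order of the libraries in the deposited tables.

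**Figure D1:**
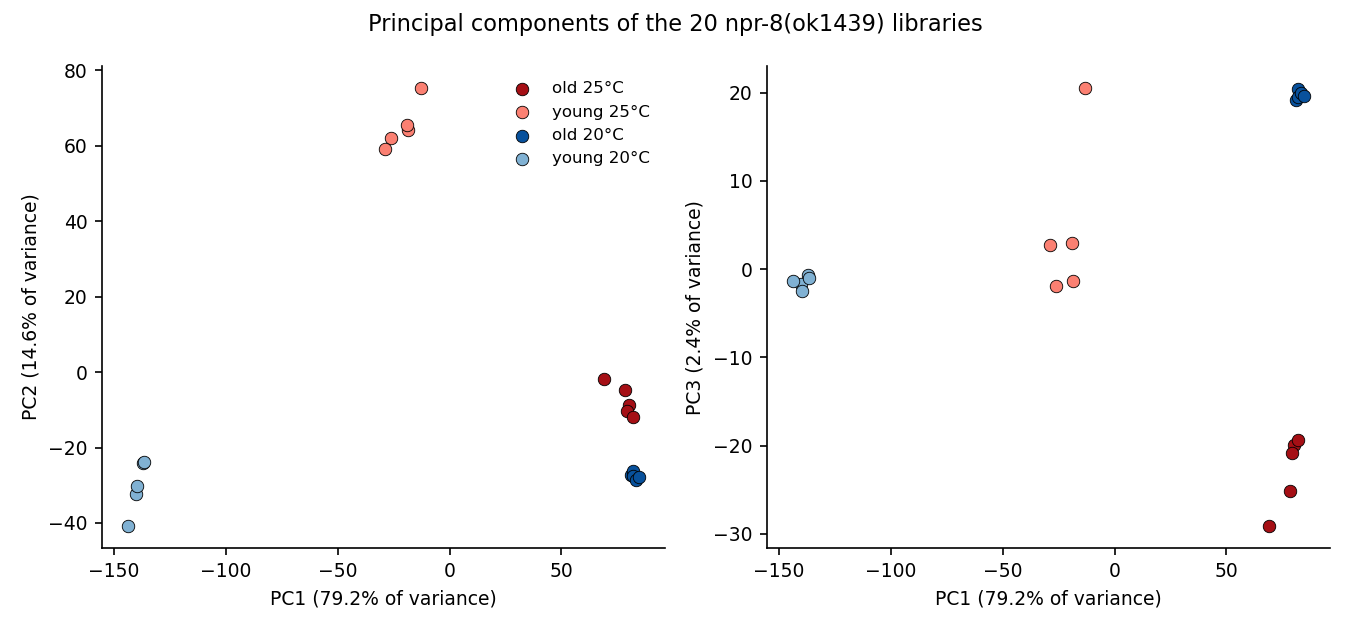
Scores of the 20 npr-8(ok1439) libraries on the first 3 principal components of log2(CPM + 1), with 1 point per library and the share of variance on each axis. The left panel plots the first component against the second. Young animals at 25°C sit between young animals at 20°C and both old groups on the first component, and above all other libraries on the second. In the right panel, against the third component, young 25°C replicate 1 (20.5) stands apart from the other 4 (−1.9 to 3).

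The deleted gene itself stayed measurable in all groups. The npr-8 gene (X:7377273-7388160, ce10) had 2.22, 2.22, 2.26, 2.78 and 2.84 CPM in old mutants and 2.11, 2.81, 2.95, 3.08 and 3.12 CPM in young mutants at 25°C. At 20°C it had 1.87, 2.14, 2.32, 2.36 and 2.39 CPM in old mutants and 2.71, 2.75, 3.14, 3.27 and 3.62 CPM in young mutants. In the wild type it averaged 1.74 to 2.7 CPM per group, scaled over all 40 libraries and not over the 20 of the mutants. The count of fragments over the whole gene, which does not separate the deleted from the remaining exons, is therefore no check of the genotype. Its interaction was 0.30 ± 0.18 (log2, approximate SE; edgeR adjusted p = 0.14) and was not called.

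The interaction asks, for each gene, whether the log2 change from young to old was the same at 25°C and at 20°C. It is the log2 change with age at 25°C minus that at 20°C, so a positive value means a smaller fall or a larger rise at 25°C. A gene was called where edgeR's quasi-likelihood test gave a Benjamini-Hochberg adjusted p under 0.05 and the value was at least 1 in size. Of 15077 genes tested, 4321 (28.7%) had a positive and 1753 (11.6%) a negative interaction, and the median over all genes was 0.17. These shares are the background for the counts per gene group below. Without young 20°C replicate 1, 3 or 5 there were 2681, 2713 or 2645 negative interactions in place of 1753. With each library left out in turn the median interaction ran from −0.09 to 0.17. More genes changed with age at 20°C: 3501 genes (23.2%) rose and 6297 (41.8%) fell with age at 20°C, against 1550 (10.3%) and 3680 (24.4%) at 25°C. The age change was smaller at 25°C than at 20°C in 79.1% of all genes and in 87.9% of the 6074 genes with a called interaction. Size factors by the RLE method in place of TMM shifted the median interaction by −0.21 and gave 3511 positive and 2446 negative calls, so the split between the directions depends on the scaling (71.1% positive with TMM, 58.9% with RLE), and the share with a smaller age change at 25°C does so little (78.3% of all genes with RLE).

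Seen along the other axis, the same interaction lay in the young animals. Between 25°C and 20°C, 2044 genes (13.6%) were higher and 3796 (25.2%) lower in young mutants, whereas 659 (4.37%) were higher and 741 (4.91%) lower in old mutants. The median size of the temperature effect was 0.77 in young and 0.23 in old mutants on the log2 scale. Among the 4321 genes with a positive interaction, 2660 (61.6%) were lower at 25°C in young animals with no called difference in old ones. Among the 1753 with a negative interaction, 1507 (86.0%) were higher at 25°C in young animals with no called difference in old ones.

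The positive interactions were mostly losses from young to old animals that were smaller or not called at 25°C. Whether the young animals at 25°C and at 20°C were collected at the same stage was not tested. Of the 4321 genes, 2052 (47.5%) fell with age at 20°C only and 1487 (34.4%) fell at both temperatures, while 313 (7.2%) rose at 25°C only, 173 (4.0%) rose at 25°C and fell at 20°C, and 82 (1.9%) rose at both. Negative interactions were mostly gains with age that were not called at 25°C: 1204 of the 1753 genes (68.7%) rose at 20°C only and 278 (15.9%) rose at both temperatures, while 101 (5.8%) fell at 25°C only and 20 (1.1%) fell at 25°C and rose at 20°C. Opposite age calls at the 2 temperatures were few, 193 genes in all, against 4373 genes called in the same direction at both.

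**Figure D2:**
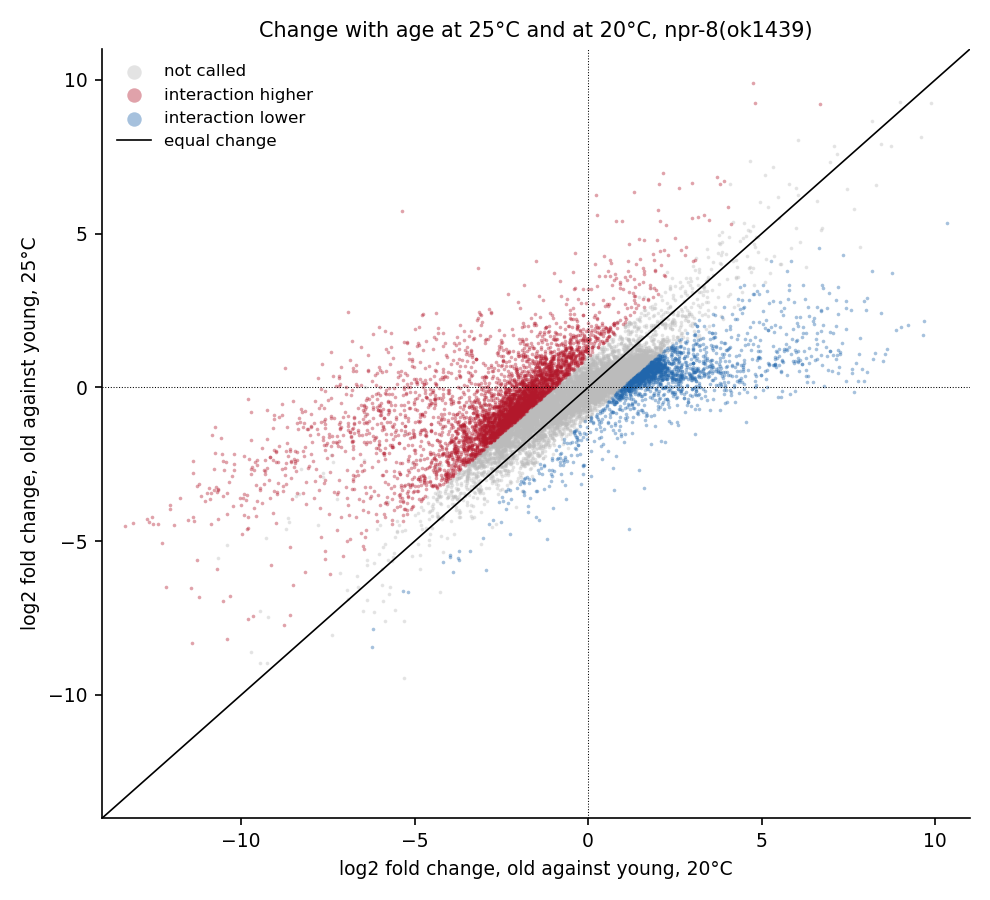
Log2 fold change with age (old against young) at 25°C on the vertical axis against that at 20°C on the horizontal axis, 1 point per gene tested (15077). Red points are the 4321 genes with a called positive and blue points the 1753 with a called negative interaction, and the line marks equal change; most called genes lie nearer to the horizontal than to the vertical zero line, that is, with the smaller change at 25°C.

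Under the naming rule given at the end, which leaves out listed intervals over 100000 bases, cuticle collagens made up 7 of the 10 largest positive interactions. They were col-175, col-49, col-73, bli-2, bli-1, col-77 and col-138. Their RNA was abundant in young mutants at 20°C, far lower in young mutants at 25°C, and close to absent in both old groups. In a bulk sample of whole animals, fewer cells of a type and less RNA per cell cannot be told apart. The collagen col-175 (X:9233620-9234541) had 0.296, 0.554, 0.954, 2.23 and 2.74 CPM in old mutants and 19, 19.3, 25.3, 37.1 and 38.4 CPM in young mutants at 25°C. At 20°C it had 0, 0.103, 0.153, 0.166 and 0.367 CPM in old mutants and 1323, 1337, 1438, 1461 and 1765 CPM in young mutants. Old and young libraries did not overlap at either temperature, and every young library at 20°C was above every other library. The log2 change with age was −4.42 ± 0.36 at 25°C and −13.13 ± 0.50 at 20°C, an interaction of 8.71 ± 0.64 (edgeR adjusted p = 8.3e-11). The other members of this set had interactions of 8.41 ± 0.69 (col-49), 8.20 ± 0.59 (col-73), 8.09 ± 0.58 (col-77) and 7.96 ± 0.66 (col-138). The old animals had few fragments of these genes, so the size of the interactions rests on small counts there.

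Across the whole col family, 127 of 156 genes passed the filter on low counts. Of these, 87 had a positive and 14 a negative interaction, and the median was 3.60, against 0.17 over all genes tested. With age, 100 fell and 9 rose at 25°C (median −3.47), and 109 fell and 8 rose at 20°C (median −7.37). The summed level of the family was 1517 to 3462 CPM in old and 36740 to 73624 CPM in young mutants at 25°C, and 503 to 678 CPM in old and 53357 to 72304 CPM in young mutants at 20°C. The young groups therefore overlapped in the summed level, although 85 members were lower and 24 higher at 25°C than at 20°C in young animals. In old animals 42 members were higher at 25°C and 1 was lower, with a median of 0.81. Without young 25°C replicate 1 the counts were 84 positive and 15 negative, and reads shared by near-identical collagens may have been split between copies, which the sources used here do not describe.

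Of 5 collagens that the study followed in other assays (rol-1, col-49, col-77, col-139 and col-179), rol-1, col-49 and col-77 had a positive interaction. The collagen rol-1 had an interaction of 8.86 ± 0.74 (edgeR adjusted p = 5.6e-10), with 41.1 ± 19.8 CPM in young mutants at 25°C and 1802 ± 227 CPM in young mutants at 20°C (SD, n = 5), but its listed interval (II:11948522-12404254) spans over 100000 bases and may hold other genes. For col-139 (V:4652896-4653944), by contrast, the interaction was 0.50 ± 0.61 (edgeR adjusted p = 0.47). It had 0.677, 1, 1.59, 4.09 and 5.74 CPM in old mutants and 579, 1292, 1304, 1511 and 1601 CPM in young mutants at 25°C. At 20°C it had 0.768, 2.1, 2.11, 2.5 and 3.08 CPM in old mutants and 750, 1282, 1384, 1934 and 2158 CPM in young mutants. Both young groups overlapped each other and so did the old groups, and the fall with age was −8.97 ± 0.53 at 25°C and −9.47 ± 0.54 at 20°C. For col-179 the sign was negative, −0.98 ± 0.35 (edgeR adjusted p = 0.016), just under the size needed for a call.

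A smaller set of collagens had the reverse pattern, being higher in young mutants at 25°C than at 20°C. The 14 col genes with a negative interaction included col-135, col-8, col-142 and col-20. The gene col-135 (IV:15129727-15131754) had 12.6, 13.9, 14.2, 17.7 and 23.8 CPM in old mutants and 79.7, 164, 170, 201 and 208 CPM in young mutants at 25°C. At 20°C it had 9.5, 9.54, 10.2, 10.4 and 10.9 CPM in old mutants and 2.66, 4.97, 5.98, 7.6 and 8.69 CPM in young mutants. It thus fell with age at 25°C (−3.33 ± 0.25), while at 20°C the change was 0.75 ± 0.26 and under the size for a call, although the libraries did not overlap there either. The interaction was −4.08 ± 0.35 (edgeR adjusted p = 1e-09). The gene col-8 averaged 38.8 ± 12.3 CPM in old and 2369 ± 258 CPM in young mutants at 25°C, and 24.7 ± 3.6 CPM in old and 189 ± 71.3 CPM in young mutants at 20°C (SD, n = 5), an interaction of −3.0 ± 0.32 (edgeR adjusted p = 2.7e-08).

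Collagens with a known role in body shape and in the rings of the cuticle followed the main pattern. All 6 furrow collagens (dpy-2, dpy-3, dpy-7, dpy-8, dpy-9 and dpy-10), which form the annular furrows, had a positive interaction, with a median of 5.53. All 6 fell with age at 20°C (median −5.97), and 2 fell at 25°C, where the median was −0.01 (0.14 with RLE). The gene dpy-7 (X:7536607-7537742) had 1.51, 2.06, 2.22, 2.71 and 3.54 CPM in old mutants and 1.75, 1.91, 1.97, 2.63 and 3.38 CPM in young mutants at 25°C. At 20°C it had 1.1, 1.13, 1.2, 1.49 and 1.62 CPM in old mutants and 53.7, 57.5, 83.3, 88.3 and 141 CPM in young mutants. Old and young libraries overlapped at 25°C and were far apart at 20°C, and the interaction was 6.03 ± 0.39 (edgeR adjusted p = 1.3e-11). Among the 15 other body-shape collagens, 13 had a positive and none a negative interaction, with a median of 7.36. The genes bli-1 and bli-2, which make the struts of the adult cuticle, had interactions of 8.14 ± 0.78 and 8.18 ± 0.61. In young mutants bli-1 averaged 10.1 ± 6.2 CPM at 25°C and 531 ± 221 CPM at 20°C, and bli-2 averaged 10.2 ± 2.77 CPM at 25°C and 548 ± 204 CPM at 20°C (SD, n = 5).

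Genes that fold and cross-link collagen changed in the same direction with smaller values. Of 10 processing enzymes tested, 7 had a positive and none a negative interaction (median 1.47), against 28.7% and 11.6% of all genes tested. The interaction was 1.98 ± 0.20 for phy-2, a prolyl 4-hydroxylase subunit, 1.90 ± 0.20 for mlt-7, a peroxidase of cuticle cross-linking, and 1.55 ± 0.24 for pdi-2, the protein disulfide isomerase that is the other subunit of the hydroxylase. All 10 fell with age at 20°C and 6 fell at 25°C.

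Hedgehog-related proteins and the proteins of the molting matrix moved with the collagens. Of 41 hedgehog-related genes (wrt, grd, grl, hog and qua) tested, 33 had a positive and 3 a negative interaction, with a median of 4.19. The gene wrt-4 (X:15752400-15757196) had 0.406, 0.483, 0.554, 0.741 and 0.927 CPM in old mutants and 1.32, 3.52, 4.65, 5.24 and 6.26 CPM in young mutants at 25°C. At 20°C it had 0.134, 0.171, 0.267, 0.29 and 0.311 CPM in old mutants and 285, 300, 349, 354 and 429 CPM in young mutants. Every young library was above every old one at both temperatures, and the interaction was 7.80 ± 0.58 (edgeR adjusted p = 9.6e-11). Of 17 molting matrix and protease genes, 16 had a positive interaction (median 4.83). All 17 fell with age at 20°C, whereas 5 rose and 1 fell at 25°C. Among them mlt-11, a large secreted protease-inhibitor protein needed for molting, averaged 22.2 ± 4.43 CPM in old and 8.74 ± 5.38 CPM in young mutants at 25°C, and 12.9 ± 1.19 CPM in old and 390 ± 167 CPM in young mutants at 20°C (SD, n = 5). It rose with age at 25°C (1.35 ± 0.37) and fell at 20°C (−4.92 ± 0.40). The cuticlin gene cut-2 had an interaction of 7.92 ± 0.46 and fell with age at 20°C (−8.83 ± 0.36), with a change of −0.91 ± 0.29 at 25°C that was under the size for a call.

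Among the transcription factors that time molts, 5 of 6 tested had a positive interaction, and their sizes differed widely. The zinc-finger gene bed-3, which is needed for molting, had 4.19, 4.37, 4.43, 4.45 and 4.83 CPM in old mutants and 1.86, 3.37, 4.35, 4.42 and 4.6 CPM in young mutants at 25°C. At 20°C it had 4.51, 4.82, 4.87, 4.96 and 4.98 CPM in old mutants and 69.9, 72.5, 89, 91.7 and 112 CPM in young mutants. Only the young libraries at 20°C stood apart from the rest, and the interaction was 4.44 ± 0.24 (edgeR adjusted p = 6.8e-13). It was 2.25 ± 0.19 for blmp-1 and 1.98 ± 0.27 for nhr-25, while for nhr-23, the nuclear receptor that drives each molting cycle, it was 0.07 ± 0.20 (edgeR adjusted p = 0.77). The level of nhr-23 was 93.9 ± 7.15 CPM in old and 51.8 ± 14.2 CPM in young mutants at 25°C, and 93.8 ± 3.41 CPM in old and 54.3 ± 4.33 CPM in young mutants at 20°C (SD, n = 5).

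The abu and pqn genes, some of which encode repeat-rich secreted proteins of the pharyngeal cuticle, gave a mixed picture. Of 60 tested, 31 had a positive and 2 a negative interaction, with a median of 1.25, against 28.7% and 11.6% of all genes tested. The negative number was 1 without young 25°C replicate 2 or 3 and 4 without young 25°C replicate 5. The interaction of abu-14 was 7.78 ± 0.45, with 2.73 ± 1.78 CPM in young mutants at 25°C and 208 ± 33.5 CPM in young mutants at 20°C (SD, n = 5). In contrast, pqn-73 rose with age at 25°C (5.40 ± 0.19), with 11.4 ± 0.325 CPM in old and 0.272 ± 0.177 CPM in young mutants there (SD, n = 5). The values of abu-6, abu-7 and pqn-2 are uncertain because near-identical copies share reads, and their interactions of 9.01 ± 2.80, 8.95 ± 1.97 and 9.48 ± 1.96 have wide errors.

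**Figure D3:**
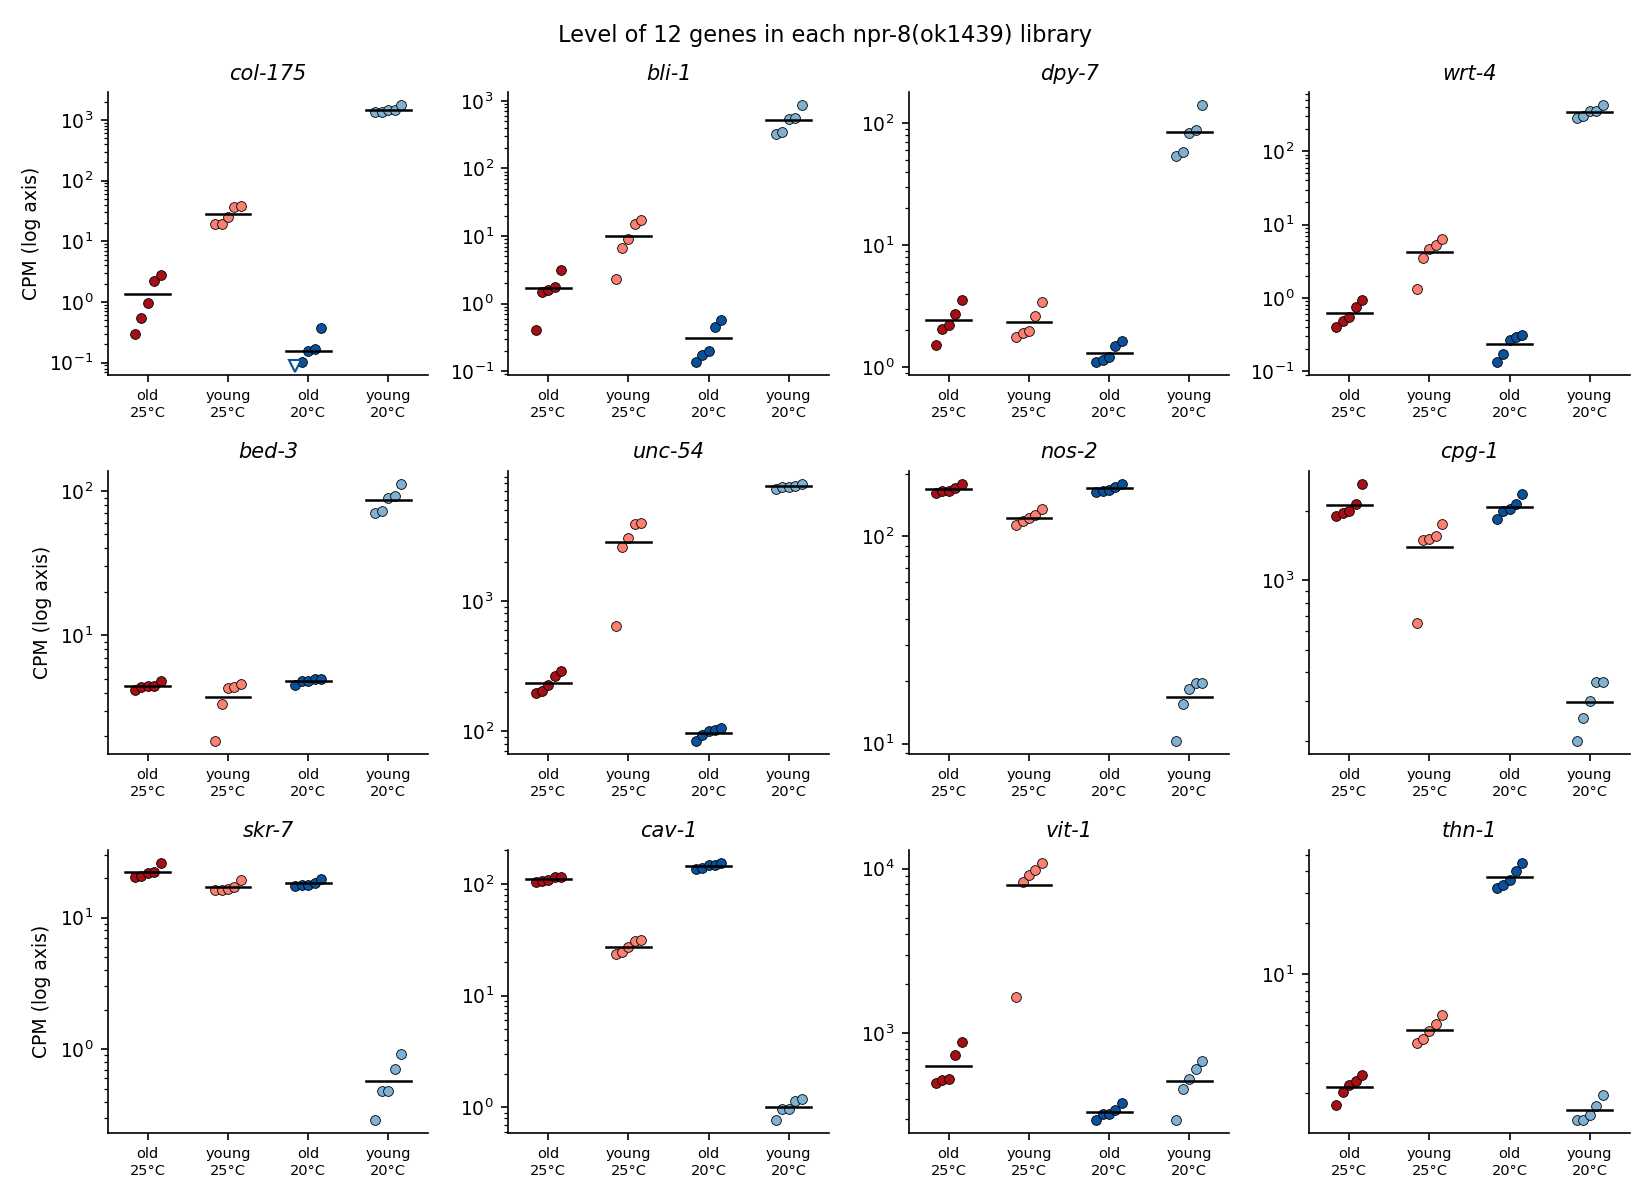
CPM on log axes for 12 genes in each of the 20 npr-8(ok1439) libraries, with the groups from left to right old 25°C, young 25°C, old 20°C and young 20°C, 1 point per library and a bar at the mean (n = 5). The open triangle at the foot of the col-175 panel is a library at 0; the collagens, wrt-4, bed-3 and unc-54 are highest in young animals at 20°C, and nos-2, cpg-1, skr-7 and cav-1 are lowest there.

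Genes of the oocyte and of the early embryo were among those with a negative interaction. They were low in young mutants at 20°C and near the level of old animals in young mutants at 25°C. All 19 listed maternal RNA regulators were tested, and 18 had a negative and none a positive interaction (median −1.65). At 20°C, 16 of the 19 rose with age (median 2.28), and at 25°C edgeR and DESeq2 called none (median 0.47), although 14 were higher and 2 lower in old animals at an unadjusted p under 0.05. The gene nos-2 (II:7065076-7069924), a translational regulator of the primordial germ cells, averaged 169 ± 6.63 CPM in old and 123 ± 8.44 CPM in young mutants at 25°C, and 170 ± 5.45 CPM in old and 16.7 ± 3.94 CPM in young mutants at 20°C (SD, n = 5). Old libraries were above young ones at both temperatures, by a small step at 25°C (0.46 ± 0.11) and a large one at 20°C (3.35 ± 0.12), and the interaction was −2.89 ± 0.16 (edgeR adjusted p = 1e-12). The interactions of puf-5, a Pumilio protein of the oocyte, and spn-4, an RNA-binding protein of the early embryo, were −2.20 ± 0.27 and −2.02 ± 0.22.

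All 12 tested genes of the eggshell and of egg activation had a negative interaction (median −2.01), all rose with age at 20°C (median 2.42), and at 25°C edgeR called none (median 0.40), DESeq2 called 1 as higher, and 8 were higher at an unadjusted p under 0.05. The chondroitin proteoglycan gene cpg-1 (III:4489332-4491231) had 1894, 1961, 1994, 2136 and 2618 CPM in old mutants and 654, 1491, 1515, 1554 and 1752 CPM in young mutants at 25°C. At 20°C it had 1847, 1998, 2032, 2142 and 2358 CPM in old mutants and 201, 253, 298, 361 and 362 CPM in young mutants. The lowest young library at 25°C, 654 CPM, was replicate 1, and even that one was above all young libraries at 20°C. The interaction was −2.21 ± 0.28 (edgeR adjusted p = 3.2e-07). Summed over the 12 genes, the level was 10986 to 14607 CPM in old and 5290 to 10580 CPM in young mutants at 25°C, and 11447 to 13333 CPM in old and 1639 to 2689 CPM in young mutants at 20°C. These oocyte genes and the molting genes above thus divided the young groups in opposite directions, and the part that the gene groups of other tissues in these whole animals had in either result was not tested.

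Of 18 DNA replication genes, 13 had a negative interaction (median −1.24), and all 18 rose with age at 20°C. At 25°C edgeR and DESeq2 called none of them, although 17 were higher in old animals at an unadjusted p under 0.05. The ribonucleotide reductase subunit rnr-2 averaged 616 ± 71.2 CPM in old and 464 ± 130 CPM in young mutants at 25°C, and 607 ± 29.1 CPM in old and 131 ± 8.01 CPM in young mutants at 20°C (SD, n = 5), an interaction of −1.81 ± 0.18. Of 21 meiosis genes, 18 rose with age at 20°C and 4 at 25°C, and 2 had a negative interaction (median −0.63; 6 with RLE). The 2 meiosis genes are near the 11.6% of all genes tested with a negative interaction. Their number rose to between 6 and 9 when any young 20°C library or young 25°C replicate 5 was left out. Of 12 P granule genes, 3 had a negative interaction, among them meg-1 (−3.19 ± 0.25) and meg-2 (−3.63 ± 0.32), which are made late in the maternal germline and act in the embryo. The number was 4 with RLE, and 5 without young 20°C replicate 1 or 3.

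Genes that mark the start of zygotic transcription were detected at low levels. Of 11 zygotic fate factors tested, 8 had a negative and 1 a positive interaction (median −2.47). The gene pes-10, an early embryonic gene, had 2.03, 2.34, 2.51, 2.93 and 3.22 CPM in old mutants and 1.71, 1.75, 1.89, 2.68 and 3.14 CPM in young mutants at 25°C. At 20°C it had 0.745, 0.868, 1.3, 1.37 and 1.8 CPM in old mutants and no fragment in any of the 5 young libraries. In old and young mutants at 25°C the libraries overlapped, so that the contrast rested on the young animals at 20°C. Of the early zygotic transcription factor nhr-2 there were 19.5 ± 2.29 CPM in old and 15.1 ± 2.5 CPM in young mutants at 25°C, and 19.5 ± 1.17 CPM in old and 0.842 ± 0.241 CPM in young mutants at 20°C (SD, n = 5), an interaction of −4.15 ± 0.20 (edgeR adjusted p = 1.3e-13).

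The vitellogenins, yolk proteins made by the intestine, included genes that fell with age at 25°C. All 5 tested genes of the set, 4 vitellogenins and the oocyte yolk receptor rme-2, had a negative interaction (median −1.91). The gene vit-1 (X:7727850-7732892) had 499, 518, 525, 739 and 890 CPM in old mutants and 1665, 8246, 9078, 9768 and 10824 CPM in young mutants at 25°C. At 20°C it had 298, 325, 325, 342 and 380 CPM in old mutants and 299, 461, 530, 611 and 680 CPM in young mutants. All young libraries at 25°C were above all others, the lowest of them again being replicate 1. It fell with age at 25°C (−3.64 ± 0.34), while the change at 20°C was −0.63 ± 0.31 (edgeR adjusted p = 0.061), and the interaction was −3.01 ± 0.45 (edgeR adjusted p = 3.3e-06). The gene vit-5 rose with age at 20°C (2.02 ± 0.33) and changed by −0.69 ± 0.32 at 25°C, and rme-2 rose at 20°C (2.22 ± 0.20) and changed by 0.31 ± 0.19 at 25°C. Without young 25°C replicate 1 all 5 stayed called, with a median of −2.18.

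Skp1-related genes, subunits of ubiquitin ligases that are expanded in the worm, included some of the largest negative interactions. Of 19 tested, 9 had a negative and 1 a positive interaction, against 11.6% and 28.7% of all genes tested. The gene skr-7 (V:4422413-4422997) had 20.5, 20.8, 21.9, 22.3 and 26.1 CPM in old mutants and 16.1, 16.1, 16.4, 17.1 and 19.5 CPM in young mutants at 25°C. At 20°C it had 17.5, 17.6, 17.8, 18.4 and 19.7 CPM in old mutants and 0.29, 0.479, 0.48, 0.701 and 0.919 CPM in young mutants. Only the young libraries at 20°C were low, and the interaction was −4.59 ± 0.19 (edgeR adjusted p = 2.1e-14). Its neighbour skr-14 had −4.36 ± 0.23, and these close paralogs may share reads.

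Other genes with a large negative interaction differed in which group they singled out. The gene cav-1, a caveolin of the germline, averaged 110 ± 5.66 CPM in old and 27.4 ± 3.61 CPM in young mutants at 25°C, and 145 ± 7.1 CPM in old and 1.01 ± 0.165 CPM in young mutants at 20°C (SD, n = 5). It rose with age at both temperatures, by 2.0 ± 0.09 at 25°C and by 7.15 ± 0.12 at 20°C, with no overlap between any of the 4 groups. The gene thn-1, which encodes a thaumatin-family protein, had the largest negative interaction under the naming rule, −5.66 ± 0.20 (edgeR adjusted p = 1.7e-15). It had 1.72, 2.04, 2.23, 2.36 and 2.55 CPM in old mutants and 3.93, 4.19, 4.63, 5.09 and 5.78 CPM in young mutants at 25°C. At 20°C it had 31.8, 33.1, 35.5, 40.3 and 44.8 CPM in old mutants and 1.4, 1.4, 1.5, 1.69 and 1.95 CPM in young mutants. Here the old animals at 20°C were the high group, so thn-1 fell with age at 25°C and rose with age at 20°C. The short-chain dehydrogenase gene dhs-26 was likewise highest in old mutants at 20°C, with 11.1 ± 1.75 CPM in old and 15.2 ± 1.45 CPM in young mutants at 25°C, and 44.1 ± 4.52 CPM in old and 2.73 ± 0.699 CPM in young mutants at 20°C (SD, n = 5).

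Most of the body wall muscle and intestinal genes tested fell with age at both temperatures. Of 16 muscle genes tested, 14 fell at each temperature (median −3.20 at 25°C and −4.95 at 20°C), and 14 had a positive interaction (median 1.75; 10 with RLE). The body wall myosin gene unc-54 (I:14856170-14863439) had 197, 203, 226, 262 and 287 CPM in old mutants and 645, 2577, 3041, 3866 and 3988 CPM in young mutants at 25°C. At 20°C it had 83.8, 92.3, 99.3, 102 and 105 CPM in old mutants and 7253, 7521, 7554, 7643 and 7918 CPM in young mutants. No 2 groups overlapped, and the interaction was 2.71 ± 0.39 (edgeR adjusted p = 2.2e-06). Without young 25°C replicate 1, the library at 645 CPM, 13 muscle genes had a positive interaction. Of 8 intestinal genes, all fell at both temperatures and 4 had a positive interaction (median 1.11), with 2.19 ± 0.27 for the intermediate filament ifb-2 and 0.93 ± 0.18, under the size for a call, for the intestinal GATA factor elt-2. Of 18 neuronal genes, 13 fell at 20°C and 4 at 25°C, and 5 had a positive interaction (median 0.76), among them rab-3, a synaptic vesicle GTPase (1.44 ± 0.12). That number is near the 28.7% of all genes tested with a positive interaction, and it was 3 without young 20°C replicate 4, young 20°C replicate 5 or young 25°C replicate 5.

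Neuropeptides are the kind of ligand that receptors related to NPR-8 bind. Over all genes tested, 28.7% had a positive and 11.6% a negative interaction, and 41.8% fell with age at 20°C and 24.4% at 25°C. With RLE, 3511 of 15077 genes had a positive interaction. Of 28 flp genes tested, 26 fell with age at 20°C and 9 at 25°C, and 13 had a positive interaction (8 with RLE). Leaving out any young 20°C library or young 25°C replicate 5 gave 7 or 8, which is near the share over all genes. Of 38 nlp genes, 30 fell at 20°C and 22 at 25°C, and 18 had a positive and 1 a negative interaction. The largest among the named ones were nlp-33 (3.98 ± 0.29) and nlp-30 (3.68 ± 0.36), antimicrobial peptides of the epidermis. In mutants nlp-33 averaged 13.5 ± 4.41 CPM in old and 54.6 ± 9.03 CPM in young animals at 25°C, and 4.54 ± 0.892 CPM in old and 291 ± 81.4 CPM in young animals at 20°C (SD, n = 5). Of 27 insulin-like peptides, 11 had a positive and 3 a negative interaction.

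Of 50 genes of the major sperm protein and small sperm families, 48 fell at 25°C and 49 at 20°C, against 24.4% and 41.8% of all genes tested. Interactions were positive for 28.7% and negative for 11.6% of all genes tested. The number of positive interactions in these families depended on the scaling. It was 8, a smaller share than over all genes, but 1 with RLE. It was also 1 when any young 20°C library or young 25°C replicate 5 was left out. A negative interaction was called for ssp-37 (−2.74 ± 0.24). The major sperm protein genes are near-identical copies and their counts are uncertain one by one. The summed level was 142 to 181 CPM in old and 796 to 1071 CPM in young mutants at 25°C, and 391 to 444 CPM in old and 3850 to 4511 CPM in young mutants at 20°C. Of 22 spermatogenesis genes, 17 had a positive interaction (11 with RLE, or with any one of those libraries left out), with a median of 1.27; 17 fell with age at 20°C and 5 at 25°C. The gene fer-1, a ferlin of sperm membrane fusion, rose with age at 25°C (1.91 ± 0.22), with 20.7 ± 1.25 CPM in old and 5.58 ± 2.37 CPM in young mutants there, and had 37.9 ± 0.977 CPM in old and 42.2 ± 5.48 CPM in young mutants at 20°C (SD, n = 5).

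Few genes rose with age at 25°C alone, and they came from several families. The chaperone gene hsp-70 had 13.4, 16.5, 17.1, 17.9 and 18.5 CPM in old mutants and 1.46, 1.54, 1.57, 1.89 and 2.58 CPM in young mutants at 25°C. At 20°C it had 23.4, 25.1, 26.7, 28 and 29.8 CPM in old mutants and 7.44, 8.81, 25.7, 33 and 57.3 CPM in young mutants. The groups did not overlap at 25°C and did at 20°C, where the young libraries were widely spread, and the interaction was 3.19 ± 0.54 (edgeR adjusted p = 1.7e-05). The transhydrogenase gene nnt-1 averaged 14 ± 1.64 CPM in old and 3.26 ± 0.511 CPM in young mutants at 25°C, and 8.58 ± 0.609 CPM in old and 16.3 ± 2.22 CPM in young mutants at 20°C (SD, n = 5), and the lysozyme gene lys-3 rose at 25°C (3.79 ± 0.18) with a change of 0.56 ± 0.15 at 20°C. Among the genes that rose with age at both temperatures, irg-2, an infection response gene, rose by 3.58 ± 0.16 at 25°C and by 1.06 ± 0.14 at 20°C.

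In the stress and defence families the directions were mixed, against 28.7% positive and 11.6% negative interactions over all genes tested. Of 19 heat shock genes tested, 6 had a positive and 1 a negative interaction (2 or 3 negative with any one young 20°C library or young 25°C replicate 5 left out). The negative one was that of sip-1, a small heat shock protein of oocytes and embryos (−2.16 ± 0.26). Of 14 antioxidant and metallothionein genes, 2 had a positive and 2 a negative interaction (1 positive with any one of young 20°C replicates 1 to 4 or young 25°C replicates 1 and 4 left out), which were negative for mtl-1, a metallothionein (−3.04 ± 0.47), and sod-3, a mitochondrial superoxide dismutase (−1.54 ± 0.28). Of 136 C-type lectins, 61 had a positive and 21 a negative interaction (median 0.82), and of 13 lysozymes 3 had a positive and 4 a negative one. Of 64 cytochrome P450 genes, 18 had a positive and 13 a negative interaction. The numbers of positive interactions among the heat shock and cytochrome P450 genes were near the share over all genes.

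Few interactions were called among genes of basic cell functions. Of 76 cytosolic ribosomal protein genes, 1 had a called interaction, and the median was −0.06, with medians of −0.71 at 25°C and −0.65 at 20°C. Among 61 mitochondrial ribosomal protein genes, 28 respiratory chain and ATP synthase genes and 30 proteasome subunits, edgeR and DESeq2 called no interaction, and the medians were 0.01, −0.04 and −0.24. At an unadjusted p under 0.05, 5 mitochondrial ribosomal, 3 respiratory and 0 proteasome genes lay above 0, and 7, 4 and 12 lay below. Without young 20°C replicate 1 or young 25°C replicate 5, 1 mitochondrial ribosomal gene had a negative interaction. Of 7 fatty acid desaturases, 2 had a negative interaction, among them fat-3 (−1.50 ± 0.16), against 11.6% of all genes tested. The stearoyl-CoA desaturase gene fat-7 fell with age by 6.44 at 25°C and by 5.95 at 20°C on the log2 scale, and its interaction of −0.49 ± 0.18 was not called.

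**Figure D4:**
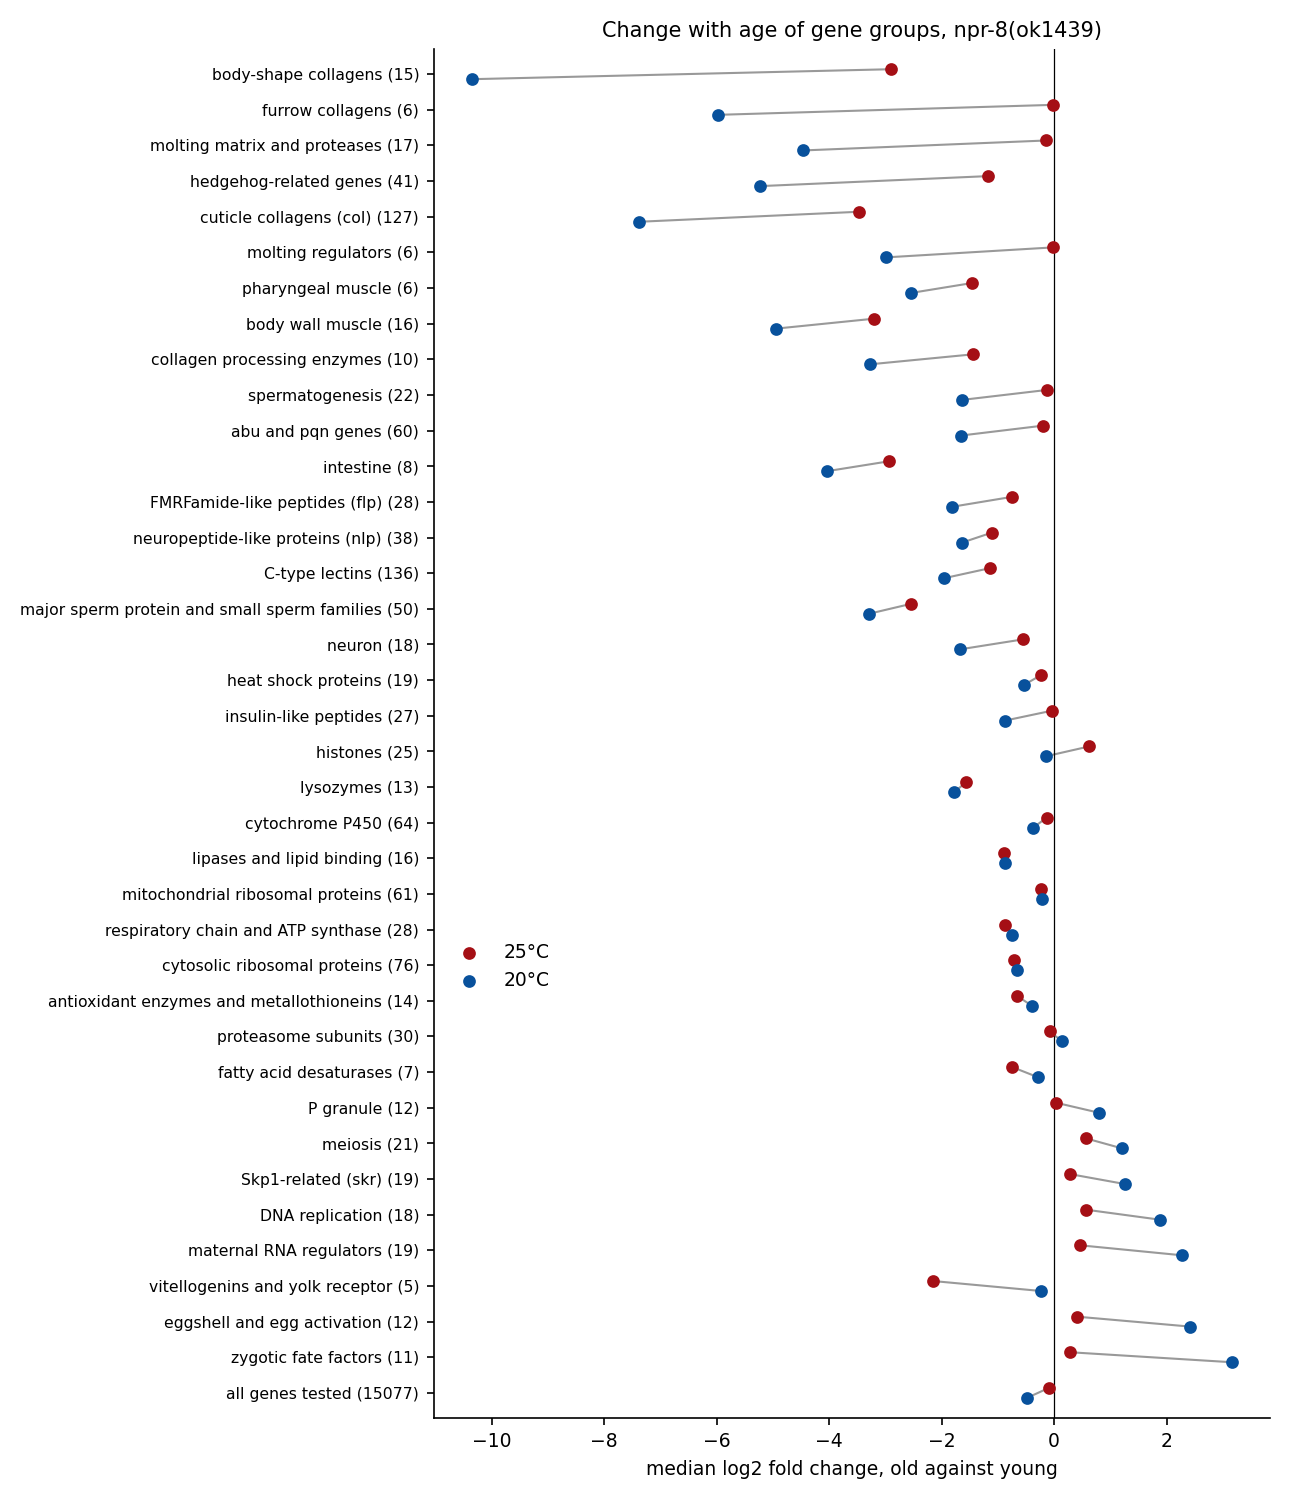
Median log2 fold change with age in npr-8(ok1439) mutants over the tested members of each gene group (number in brackets), at 25°C (red) and at 20°C (blue), sorted by the median interaction with all 15077 genes at the foot. Collagen, molting and hedgehog-related groups lie far to the left at 20°C and nearer to 0 at 25°C, and oocyte and embryo groups lie to the right at 20°C and nearer to 0 at 25°C.

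A gene at 0 fragments in all 5 libraries of a group gives a bound only, taken here at 3 fragments per library, which covers counting error alone. Of the genes called, 76 had such a group, 14 with a positive and 62 with a negative interaction. At 20°C, old mutants were at least 115-fold lower than young ones for T01B7.13 and at least 30.7-fold lower for the collagen col-117. For hch-1, a hatching protease of the embryo, the level in old mutants at 20°C was at least 49-fold higher compared with young ones, and for C08F1.6 at least 31.1-fold higher.

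Whether the interaction differed between npr-8(ok1439) and wild-type animals was tested over all 40 libraries. The CPM values given for mutants were scaled over their 20 libraries and those for wild type over all 40. Levels of the genotypes printed side by side below are therefore not on the same scale, whereas each test of the difference used a single fit. Of 15404 genes, 1141 (7.41%) had a higher and 1604 (10.4%) a lower interaction in npr-8(ok1439) than in wild type. In the same fit 4842 genes (31.4%) had a positive and 3360 (21.8%) a negative interaction in wild type, against 4160 and 2008 in the mutants. The median size in wild type was 1.13. In the mutants it was 0.81, but in the separate fit of their 20 libraries (15077 genes). Of the 2745 genes that differed, 2466 (89.8%) had the smaller interaction in the mutants. In the fit with all 40 libraries 5442 genes were called in the same direction in both genotypes and 32 in opposite directions.

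The oocyte groups differed between the genotypes in a single direction. Of 19 maternal RNA regulators 15, and of 12 eggshell and egg activation genes 10, had a higher, that is less negative, interaction in the mutants, and none had a lower one. For nos-2 the interaction was higher by 1.63 ± 0.18 (edgeR adjusted p = 1.9e-09) and for cpg-1 by 2.02 ± 0.32 (edgeR adjusted p = 3.4e-06). Young animals at 25°C had 1393 ± 426 CPM of cpg-1 in the mutants and 2440 ± 75.3 CPM in wild type, and young animals at 20°C had 295 ± 69.7 CPM in the mutants and 99.4 ± 15.9 CPM in wild type (SD, n = 5). Of 22 spermatogenesis genes, 18 had a lower interaction in the mutants and none a higher one. The gene spe-19 had 0.627 ± 0.104 CPM in young mutants at 25°C and 5.03 ± 0.739 CPM at 20°C, and young animals of the wild type had 0.183 ± 0.0541 CPM at 25°C and 10.2 ± 1.19 CPM at 20°C (SD, n = 5).

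The cuticle groups split. For 5 of 6 furrow collagens and 8 of 17 molting matrix genes the positive interaction was higher in the mutants, with none lower, whereas of 129 col genes 28 had a higher and 40 a lower interaction. Young mutants at 20°C had 84.8 ± 35.1 CPM of dpy-7, and young wild-type animals at 20°C had 13.5 ± 4.42 CPM (SD, n = 5), a difference in interaction of 1.94 ± 0.60 (edgeR adjusted p = 0.012). By the naming rule the genes with the most positive difference were col-135 (5.83 ± 0.54), fbn-1 (5.60 ± 0.43), cav-1 (5.31 ± 0.34), unc-39 (5.23 ± 0.59) and wrt-10 (5.12 ± 0.35). The fibrillin-related gene fbn-1 encodes a molting matrix protein. It had a positive interaction in the mutants (3.5 ± 0.36, fit of 20 libraries) and a negative one in wild type (−2.17 ± 0.30, fit of all 40). It averaged 27 ± 3.32 CPM in old and 7.54 ± 3.06 CPM in young mutants at 25°C, and 24.3 ± 2.05 CPM in old and 76.6 ± 30.3 CPM in young mutants at 20°C. In wild type it averaged 48 ± 3.64 CPM in old and 22.8 ± 5.14 CPM in young animals at 25°C, and 91.6 ± 7.23 CPM in old and 9.64 ± 1.25 CPM in young animals at 20°C (SD, n = 5). The genotypes thus had the opposite order of old and young animals at 20°C. The most negative differences were those of fbxa-155 (−5.63 ± 0.36), col-154 (−4.29 ± 0.68), col-120 (−4.05 ± 0.57), wht-5 (−4.01 ± 0.37) and oac-19 (−3.90 ± 0.40). Among the 8 intestinal, 18 neuronal and 76 cytosolic ribosomal protein genes edgeR and DESeq2 called no difference, and at an unadjusted p under 0.05 there were 4, 3 and 0 higher and 0, 4 and 10 lower.

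**Figure D5:**
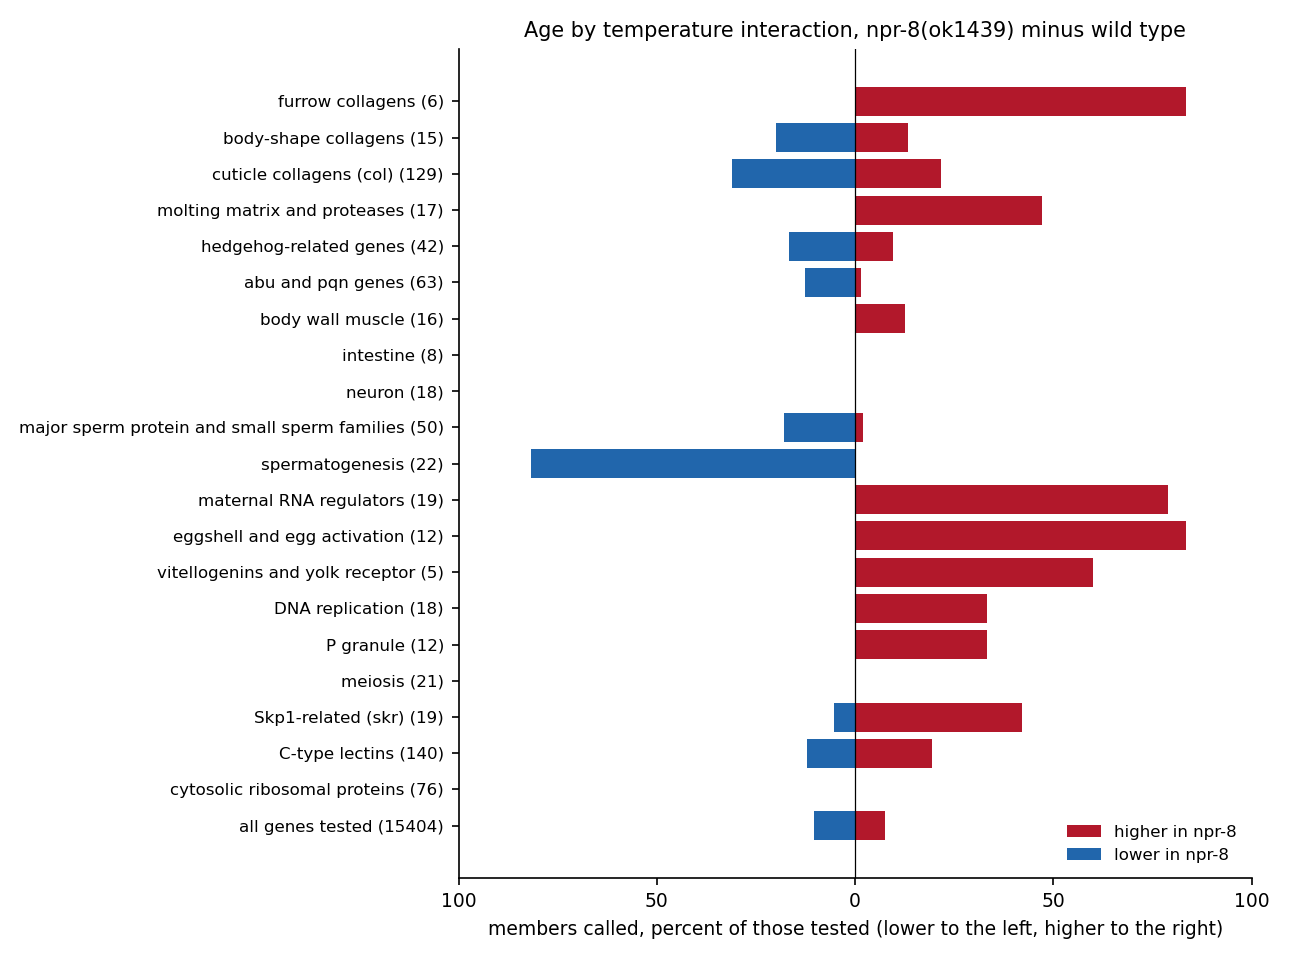
Share of the tested members of each gene group (number in brackets) whose interaction was higher (red, to the right) or lower (blue, to the left) in npr-8(ok1439) than in wild type, in percent, over 40 libraries. Oocyte and furrow collagen groups extend to the right and spermatogenesis genes to the left, against 7.41% higher and 10.4% lower over all 15404 genes.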

How the data were processed

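RNA from whole animals was sequenced by the authors from stranded mRNA libraries. Per the labels' processing notes, reads were aligned with Bowtie2 2.3.4 to ce10 and quantified with Cufflinks 2.2.1 and Cuffdiff, while the study's methods name HISAT2. The deposited gene tables give raw fragments, which are estimated counts that need not be whole (67 genes held fractions), and the authors' FPKM, which served only to check gene assignment. For the old 20°C group of the mutant the deposited table lists transcripts. Its counts were summed to genes, assigned by accession (10869 of 13851 genes with a mean of at least 10) or by matching totals (2655), with FPKM within 2% in 99.4% of the accession genes checked. The genes used held 89.2 to 95.7% of the fragments. Counts were rounded to whole numbers. The authors' comparison tables, which hold their fold changes and p-values, and 10 columns of scaled fragments were not used.

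Genes were kept by filterByExpr (minimum count 10, minimum total 15), scaled by TMM and tested by edgeR 4.0.16 quasi-likelihood F tests (R 4.3.3) with Benjamini-Hochberg adjustment over all genes tested. A call needed an adjusted p under 0.05 and a log2 value of at least 1 in size. The ± after an interaction or a log2 change is its size divided by the square root of its F statistic. It is an approximate standard error (SE), not one estimated by the model. The model was fitted to the 20 npr-8(ok1439) libraries, and for the comparison with wild type to all 40. The test was first run on simulated data. Alternatives were RLE size factors, library size alone, no filter, DESeq2 1.42.0, a replicate block, genes assigned by accession only, all 40 libraries, an adjusted p under 0.01, and leaving out each library. The use of RLE for gene groups and patterns was chosen after seeing the data. Gene groups and members were chosen with earlier results of these data known. The naming rule first took the 10 largest called interactions in each direction. These genes had a gene symbol, an interval of at most 100000 bases and a group mean of at least 10 CPM in some group. They also had at least 20 fragments in every group, and an adjusted p under 0.05 with the same sign under each library left out. Next came up to 3 genes per pattern of age calls, and up to 4 per gene group with its defining members. The rule also took collagens of the study's other assays, 5 genes in each direction for the difference from wild type, and 2 in each direction with a group at 0. Other genes were named after their values were seen. No pair of libraries was a duplicate by counts. Intervals of 3015 tested genes span over 100000 bases.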

Additional observations from a re-analysis of the deposited data

Results flagged for a closer look

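In 24 of the named genes each group of 5 libraries was tested for a single library far from the others (a gap over 0.71 of the range), and 4 of 96 groups had one; chance gives about 1 in 20. These were col-179 in young mutants at 25°C (replicate 3, 855 CPM), col-77 in old mutants at 20°C (replicate 4, 0.935 CPM), grl-7 in old mutants at 25°C (replicate 1, 2.2 CPM) and skr-7 in young mutants at 25°C (replicate 1, 19.5 CPM), each the highest of its group.

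By edgeR's test of the difference itself, 10 named genes were flagged, which the naming rule had picked for the largest differences from wild type. Other named genes also passed that test, such as nos-2, cpg-1 and dpy-7. Among the 10 flagged, the interaction was higher in the mutants for col-135 (5.83), fbn-1 (5.60), cav-1 (5.31), unc-39 (5.23) and wrt-10 (5.12). It was lower for fbxa-155 (−5.63), col-154 (−4.29), col-120 (−4.05), wht-5 (−4.01) and oac-19 (−3.90). All values are on the log2 scale.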

How the results depend on the processing

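The 4321 positive interactions became 2817 with genes assigned by accession only (12496 genes tested), and the 1753 negative ones became 2824 with no filter on low counts (20161 genes tested). Leaving out each library in turn gave 3348 to 4377 positive and 1670 to 2713 negative interactions, with a median of −0.09 to 0.17. The negative count rose by over 1.5 times without young 20°C replicate 1 (2681), 3 (2713) or 5 (2645), and the cause was not tested. Shifts were not limited to these libraries. Without any young 20°C library, or without young 25°C replicate 5, the major sperm protein and spermatogenesis groups had the positive counts given by RLE, 1 and 11. RLE, library size alone, DESeq2, all 40 libraries and an adjusted p under 0.01 gave 3511 to 4160 positive calls. Negative calls were 2446 with RLE, 2447 with DESeq2, 2366 by accession only, 1933 with library size alone and 2008 with all 40 libraries. Of the calls 71.1% were positive as reported, against 54.4% by accession only, 55.8% with no filter, 58.9% with RLE and 59.2% with DESeq2. In these alternatives the median interaction was −0.08 to −0.03. The share was 67.4% with all 40 libraries, 68.1% with library size alone and 71.6% with the replicate block. With the replicate block there were 4342 positive and 1726 negative calls; libraries of the same number did not deviate together (correlation of deviations −0.33 to 0.212, median −0.007), so the numbers do not pair the libraries. The interaction of npr-8 itself, 0.30, was −0.03 without young 20°C replicate 3 and ranged up to 0.33 with other libraries left out. That of col-179, −0.98, was −1.03 without young 25°C replicate 1 and then missed the adjusted p of 0.05. RLE raised the median age change by 0.15 at 25°C and by 0.36 at 20°C, and changed the share of age calls that were rises to 37.9% (29.6% with TMM) and 45.9% (35.7% with TMM). It also raised the share of higher calls between 25°C and 20°C in young animals to 46.1% (35% with TMM). Genes with few fragments in old animals limit the precision of the largest interactions.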
